A study of Mus musculus with 8 samples.

Results

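Cycling CD8+ T cells of B16-OVA tumors were the CD8+ tumor-infiltrating lymphocytes (TILs) in which single-cell RNA sequencing found at least 1 unique molecular identifier (UMI, 1 captured RNA molecule) of Mki67 and at least 1 of Top2a. They numbered 373 of 4673 CD8+ TILs, among 12828 cells that passed the quality filter and 15700 barcodes in all. A cell counted as a CD8+ TIL when it held Cd8a or Cd8b1 and Cd3d, Cd3e or Cd3g, and no UMI of Cd4, Lyz2, Cd79a or Ncr1. The other 4300 CD8+ TILs, which lacked Mki67, Top2a or both, served as the comparison. Members were thus chosen by measured Mki67 and Top2a counts of the same cells, and differences between cycling and other CD8+ TILs are given as a description, with no test.

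CD45+ cells were sorted from tumors of C57BL/6 mice that had been injected with B16-OVA at 7 weeks of age. B16-OVA is a melanoma line that carries ovalbumin, the antigen seen by the receptor of OT1 T cells. The mice received adoptive cell transfer (ACT) of OT1 cells without lymphodepletion. OT1 cells were untransduced (days 5 and 12), secreted PD1d with IL-2v (day 12), or secreted PD1d with IL-33 (day 12). A mix of both engineered products, which together secreted all 3 molecules, was sampled on days 5, 12 and 26. A non-treated group was taken on day 5. PD1d is a decoy made of the outer domain of mouse PD-1 and a human IgG4 Fc, IL-2v is a variant of interleukin-2, and IL-33 is an alarmin cytokine. ACT with PD1d/IL-2v/IL-33 cells, made by mixing both cytokine products, is called orthogonal ACT here. Each condition and day was 1 library, so no condition had a replicate. The study's methods give pooled tumors of 5 mice per condition for ACT on days 5 and 12, and the number of mice behind the day 26 and non-treated libraries is not given in the sources used here. Intervals cover counting error only. Neither the CD8 gate nor the gene table separates transferred OT1 cells from the host's own CD8+ cells, and transgene sequences were not analysed here.

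The libraries differed in size. Untransduced ACT on day 5 gave 2500 barcodes and 15572622 UMIs, and 56 of its 408 CD8+ TILs were cycling. PD1d/IL-2v ACT on day 12 gave 17343794 UMIs with 33 cycling of 469 CD8+ TILs, and PD1d/IL-33 ACT on day 12 gave 4810085 UMIs with 26 of 355. Orthogonal ACT gave 17851327 UMIs with 92 of 485 on day 5, 14981578 UMIs with 70 of 697 on day 12, and 24917112 UMIs with 92 of 2152 on day 26. The smallest libraries, of 400 barcodes each, held 37 CD8+ TILs (untransduced ACT on day 12, 1387032 UMIs) and 70 (non-treated, 1805961 UMIs), of which 0 and 4 were cycling, so gene levels were compared over the other 6 libraries. The deposited aggregation table carried 5 labels of Cell Ranger output, called runs here. What these labels stand for was not established. Each share ratio and each comparison of gene levels between conditions or days below set libraries of different runs against each other. Run and condition cannot be told apart in them. Barcode sequences found in more than 1 library numbered 143. Of the cycling CD8+ TILs 8 held such a sequence, and 0 sequences were shared between cycling cells.

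A dividing cell copies its DNA in S phase and separates the copies in mitosis (M), after the gaps G1 and G2. E2F factors turn on the replication genes at the start of S phase, and a later wave of genes for the spindle, the centromere and the mitotic kinases peaks in G2 and M. Activated CD8+ T cells are among the fastest dividing cells of the adult animal, and within tumors both early effector cells and PD-1+ cells can divide. Mki67 encodes the chromosome coat protein Ki-67, and Top2a encodes the topoisomerase that untangles replicated DNA. Both are expressed from S phase to mitosis, so that a rule on their RNA finds few cells in G1.

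The sequences just upstream of these genes show the elements of the late wave. Promoters were taken from RefSeq (GRCm38.p6), from 250 bases before to 50 bases after each gene's start. Capitals mark the CHR element (TTTGAA or TTCGAA), the CCAAT box (CCAAT) and the E2F site (TTTCGCGC or TTTGGCGC), each searched on both strands. The first 3 are the promoters of Mki67 (chr7:135716330-135716629, minus strand), Top2a (chr11:99024140-99024439, minus strand) and Birc5 (chr11:117848987-117849286, plus strand). The fourth is that of Mcm6 (chr1:128359656-128359955, minus strand), a helicase subunit of replication and the S-phase gene of the fixed list with the most E2F letters in its window.
Mki67: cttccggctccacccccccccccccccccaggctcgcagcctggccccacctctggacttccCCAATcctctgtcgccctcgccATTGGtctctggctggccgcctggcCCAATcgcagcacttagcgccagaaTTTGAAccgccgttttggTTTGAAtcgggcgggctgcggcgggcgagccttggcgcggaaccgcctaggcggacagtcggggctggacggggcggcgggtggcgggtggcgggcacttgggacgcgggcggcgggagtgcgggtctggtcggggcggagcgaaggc
Top2a: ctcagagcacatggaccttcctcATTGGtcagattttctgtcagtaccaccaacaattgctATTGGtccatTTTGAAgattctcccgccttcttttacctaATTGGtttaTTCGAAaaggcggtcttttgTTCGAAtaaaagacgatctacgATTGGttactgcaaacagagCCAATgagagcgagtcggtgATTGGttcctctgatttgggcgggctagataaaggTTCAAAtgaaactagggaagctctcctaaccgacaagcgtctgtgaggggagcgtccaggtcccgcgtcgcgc
Birc5: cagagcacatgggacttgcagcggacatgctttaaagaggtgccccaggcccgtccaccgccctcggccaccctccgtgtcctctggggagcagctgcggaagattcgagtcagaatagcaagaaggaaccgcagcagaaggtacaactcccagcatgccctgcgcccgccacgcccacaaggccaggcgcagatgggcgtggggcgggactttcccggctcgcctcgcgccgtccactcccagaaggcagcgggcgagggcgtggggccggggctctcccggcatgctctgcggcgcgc
Mcm6: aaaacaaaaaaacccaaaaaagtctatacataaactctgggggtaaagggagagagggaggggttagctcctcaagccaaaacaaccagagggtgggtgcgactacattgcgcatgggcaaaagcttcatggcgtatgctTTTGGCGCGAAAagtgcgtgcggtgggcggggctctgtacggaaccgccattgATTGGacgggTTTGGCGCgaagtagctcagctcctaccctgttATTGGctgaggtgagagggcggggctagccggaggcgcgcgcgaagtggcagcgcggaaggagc
The Mki67 window held 2 CHR and 3 CCAAT matches and 0 E2F matches, and the Top2a window held 4 CHR and 6 CCAAT matches and 0 E2F matches. In Mcm6 the search found 3 E2F matches, 2 of which overlap, and 2 CCAAT matches and 0 CHR matches. None of these letters occurred in the Birc5 window, which says nothing of factors that may act there. Over the list of G2 and M genes, 34 of 47 windows (72.3%) held a CHR match, against 6 of 34 windows (17.6%) of the G1/S and S list and 5254 of all 27025 windows (19.4%). An E2F match stood in 8 of 34 windows (23.5%) of the S list, 2 of 47 (4.26%) of the G2 and M list and 225 of all windows (0.833%). CCAAT matches were in 24 of 34 (70.6%), 36 of 47 (76.6%) and 10248 of all (37.9%). A match is a stretch of letters, not a site shown to be bound.

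The label was checked with Birc5 and Stmn1, which the rule did not read. Birc5 encodes survivin, a subunit of the chromosomal passenger complex, and Stmn1 encodes stathmin, which takes tubulin dimers out of the spindle's supply. Cycling cells held more UMIs than other CD8+ TILs, with a median of 13981 against 5697. Each cell was therefore thinned to 2000 UMIs for shares of cells that held a gene. After thinning, Birc5 was found in 41.6% of cycling cells and 1.05% of other CD8+ TILs, and Stmn1 in 69.2% and 6.07%. Of 101 genes of the S and the G2 and M lists, the median cycling cell still held 18 and the median other cell 4. In each of the 6 libraries that median lay between 16.5 and 19.5 for cycling cells. Markers that the rule left out were therefore higher in the cells it selected, in every one of these libraries, and the name was kept.

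Mki67 was present at a median of 4 UMIs per cycling cell and at most 28, and Top2a at a median of 5 and at most 44. Cells at the edge of the rule were less clear. The 53 cells with exactly 1 UMI of each gene had a median of 6 of the 101 cycle genes after thinning, and 9.43% of them held Birc5. The 320 cells above that edge had a median of 19 and 46.9%. Just outside the rule, 244 cells held Mki67 but no Top2a (median 5 cycle genes, Birc5 in 6.97%) and 496 held Top2a but no Mki67 (median 4, Birc5 in 1.81%). The 3560 cells with neither had a median of 4, with Birc5 in 0.534%. The lowest cells inside the rule thus lay closer to the cells outside it than to the rest of the cycling cells.

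The number of UMIs moved with membership. In cycling cells the median was 18074 UMIs after untransduced ACT, 15688 after PD1d/IL-2v ACT and 9925 after PD1d/IL-33 ACT. After orthogonal ACT it was 12137.5 on day 5, 13029.5 on day 12 and 15699.5 on day 26. The medians of the other CD8+ TILs lay between 5115.5 and 7687 in these 6 libraries, below those of the cycling cells of each. Cycling cells also held more genes (median 3342 against 1862.5), with 27.3% against 31.3% of UMIs from ribosomal protein genes and 2.96% against 2.87% from mitochondrial genes. Above 20000 UMIs lay 91 cycling cells (24.4%) and 77 other cells (1.79%). No doublet caller was run and such cells were kept. A rule that asks for a UMI of each of 2 genes finds more cells where more UMIs are read, and the part of depth in membership is given below by thinned values.

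Cycling cells made up the largest share of CD8+ TILs after orthogonal ACT on day 5 and the smallest share, among libraries with over 100 CD8+ TILs, after orthogonal ACT on day 26. The share was 19.0% on day 5 (exact 95% interval 15.6 to 22.7), 10.0% on day 12 (7.91 to 12.5) and 4.28% on day 26 (3.46 to 5.22). After untransduced ACT it was 13.7% on day 5 (10.5 to 17.5). With PD1d and 1 cytokine on day 12 it was 7.04% for IL-2v (4.89 to 9.74) and 7.32% for IL-33 (4.84 to 10.5). In the non-treated library 4 of 70 cells were cycling (5.71%, 1.58 to 14.0). Untransduced ACT on day 12 had 0 of 37, which allows a share of up to 8.11% by 3 counts of the total and 9.49% by the exact interval. Both limits lay above the shares of both PD1d libraries with 1 cytokine and below the 10.0% of orthogonal ACT on day 12, whose interval reached down to 7.91%.

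**Figure D1:**
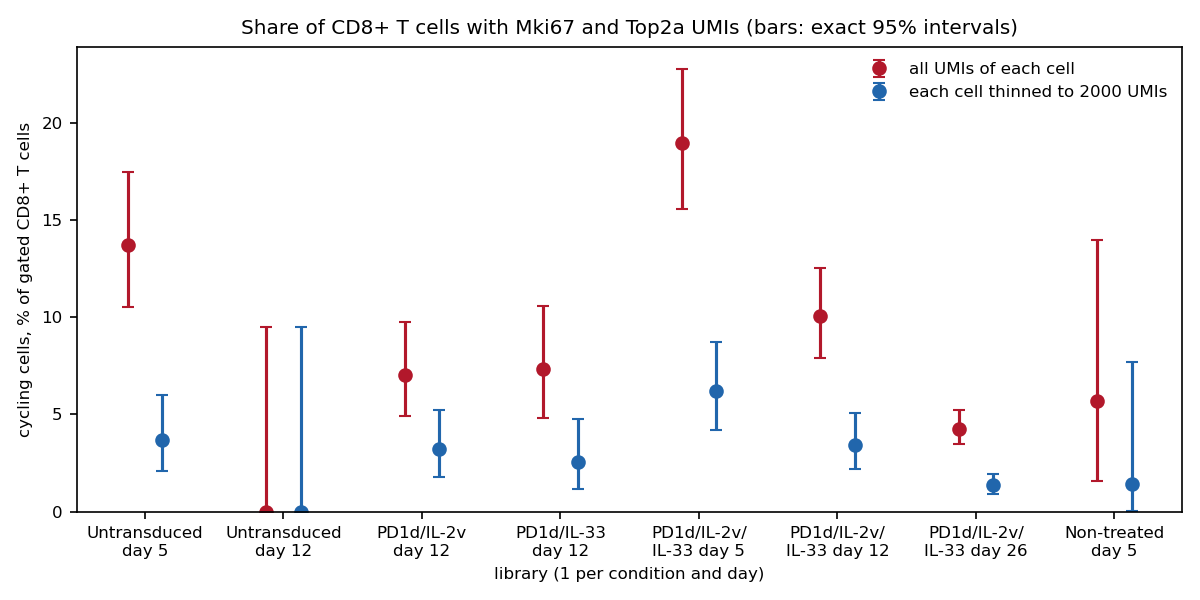
Share of CD8+ TILs in percent (y axis) that met the Mki67 and Top2a rule in each of the 8 libraries (x axis), with all UMIs and after thinning every cell to 2000 UMIs; bars are exact 95% intervals for counting error, 1 library per condition and day. With all UMIs the orthogonal libraries step down from 19.0% to 10.0% and 4.28%, and after thinning from 6.19% to 3.44% and 1.35%.

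By the Mki67 and Top2a rule, the decline from day to day in the orthogonal libraries was larger than the counting error at both depths. The day 12 share was 0.529 times the day 5 share (0.392 to 0.712), and 0.557 times after thinning (0.319 to 0.962). With at least 1 UMI of either gene as the rule it was 0.907 times (0.768 to 1.07), an interval that included 1. The day 26 share was 0.426 times the day 12 share (0.314 to 0.581), and 0.391 times after thinning (0.224 to 0.690). Between conditions the differences were smaller at both depths with the main cell filter. The day 5 share of orthogonal ACT was 1.38 times that of untransduced ACT (1.01 to 1.90), but the interval included 1 after thinning, at 1.68 (0.904 to 3.28). On day 12 orthogonal ACT was at 1.43 times PD1d/IL-2v ACT (0.954 to 2.18), and 1.08 times after thinning (0.557 to 2.15). It was at 1.37 times PD1d/IL-33 ACT (0.887 to 2.19), and 1.36 times after thinning (0.630 to 3.24). None of these day 12 intervals excluded 1. With the cell filter of the study's other experiment, given below, orthogonal ACT was at 3.95 times PD1d/IL-2v ACT (1.42 to 15.2). On day 5 it was then at 3.85 times untransduced ACT (1.74 to 10.1), and both intervals excluded 1. With 5 or more of the 101 cycle genes as the rule in place of Mki67 and Top2a, the day 26 share was 1.01 times that of day 12 and the day 5 share of orthogonal ACT 0.918 times that of untransduced ACT, so both directions depended on the rule.

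Cells that met the rule were also found outside the CD8+ TILs. By the same 2 genes, 70 of 1756 natural killer (NK) cells were cycling (3.99%, thinned 2.11%), 60 of 1116 CD4+ T cells (5.38%, thinned 2.33%), 5 of 206 macrophages (2.43%, thinned 0.485%), 3 of 112 B cells (2.68%) and 0 of 70 mature dendritic cells, which allows up to 4.29% by 3 counts of the total and 5.13% by the exact interval. Over all libraries the CD8+ share was 7.98% (thinned 2.63%). These pooled shares rest on different libraries, since day 26 of orthogonal ACT held 2152 of the CD8+ TILs and 65 of the NK cells. Without day 26 the thinned shares were 3.73% for CD8+, 2.73% for CD4+ T cells and 2.19% for NK cells.

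Genes were compared between cycling and other CD8+ TILs of the same library by summing each gene's UMIs over the cells and scaling their total to 1000000, which gives counts per 1000000 UMIs (CPM). Ratios are log2 after adding 10 CPM to both levels, so that a value of 1 is 2-fold, and they understate the difference of low genes. A gene with at least 50 UMIs in both cell sets together counted as higher or lower when its ratio was past 2-fold and the 95% counting interval of the ratio excluded 0. By this rule of size 88 of 4473 genes compared in all 6 libraries were higher in cycling cells in every one of them (1.97%), and 1 was lower in every one (0.0224%). Of the 88, 51 belonged to the fixed lists and 37 did not. The number higher in every library was 19 in thinned cells, 203 at a minimum of 10 UMIs and 140 without the PD1d/IL-33 library. Within a library the genes counted as higher were 232 after untransduced ACT (3.53% of those compared), 277 after PD1d/IL-2v ACT (4.11%) and 184 after PD1d/IL-33 ACT (4.03%), and 245, 253 and 381 after orthogonal ACT on days 5, 12 and 26 (3.62%, 3.35% and 4.16%). The genes counted as lower were 93 (1.41%), 83 (1.23%) and 207 (4.53%) in the first 3 of these libraries and 36 (0.532%), 35 (0.464%) and 121 (1.32%) in the orthogonal libraries. With TMM scaling the counts were 212 higher and 128 lower in place of 277 and 83 after PD1d/IL-2v ACT, and 344 and 179 in place of 381 and 121 on day 26. The balance of both directions also moved with the UMIs read. With a minimum of 10 UMIs the PD1d/IL-33 library had 431 higher and 264 lower. In thinned cells the untransduced library had 109 higher and 152 lower. It moved with the added level as well. With 1 CPM added in place of 10, the orthogonal libraries had 339, 431 and 662 higher on days 5, 12 and 26. Lower there were 132, 157 and 518. The untransduced library then had 334 higher and 281 lower.

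The markers of the label gave the scale of these ratios. Mki67, which the rule used, stood at 274, 447 and 394 CPM in cycling cells of the untransduced, PD1d/IL-2v and PD1d/IL-33 libraries and at 451, 333 and 369 in the orthogonal libraries of days 5, 12 and 26. Top2a, also used by the rule, stood at 465, 579.6 and 461 and at 443, 447 and 486. Birc5 stood at 336, 339.7 and 353 and at 260.3, 269.5 and 496, against 10.0 to 18.9 in the other cells. Stmn1 stood at 979, 995 and 1223 and at 649, 916 and 1142, against 39.4 to 91.1. Birc5 and Stmn1, which the rule did not read, were among the 88 of 4473 compared genes (1.97%) counted as higher in all 6 libraries. On day 26 Birc5 had its highest level and its highest ratio (log2 4.60), as had Stmn1 its highest ratio (4.54).

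Replication genes were higher in cycling cells of every library. Of the list of 46 G1/S and S genes, those counted as higher were 32 of 39 compared after untransduced ACT, 32 of 36 after PD1d/IL-2v ACT, 19 of 24 after PD1d/IL-33 ACT, and 33 of 42, 32 of 38 and 33 of 42 after orthogonal ACT on days 5, 12 and 26, and 0 were lower. The median log2 ratio of the list lay between 1.47 and 1.80, where that of all genes compared lay between -0.06 and 0.06. Rrm2, the inducible subunit of ribonucleotide reductase, stood at 254, 326, 285, 177, 187 and 272 CPM in cycling cells and at 3.83 to 11.5 in other cells. Pcna, the sliding clamp of DNA polymerase, stood at 243, 263, 405, 255, 295 and 177 against 45.6 to 94.5. Mcm6 stood at 269.8, 249, 214, 186, 175 and 172 against 63.1 to 95.6. Pcna and Mcm6 were thus well represented in CD8+ TILs outside the rule, at ratios of 1.56 to 2.04 and 1.08 to 1.49, whereas the ratios of Rrm2 were 3.55 to 4.21.

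The G2 and M genes had the largest median ratio of the fixed lists, the label markers aside, in each of the 6 libraries. Of 55 genes, those counted as higher were 34 of 37 compared, 30 of 34 and 19 of 22 in the first 3 libraries and 34 of 39, 33 of 38 and 47 of 52 in the orthogonal ones, and 0 were lower. The median ratio of the list was 2.38, 2.37 and 1.73, then 2.07, 2.29 and 2.38. Ube2c, the ubiquitin-conjugating partner of the anaphase-promoting complex, stood at 437, 387, 218, 267, 357 and 633 CPM in cycling cells against 13.4 to 38.5. Aurkb, the kinase of the chromosomal passenger complex, stood at 101, 116, 67.5, 58.1, 74.6 and 119 against 1.31 to 5.24. Plk1, a kinase of mitotic entry, stood at 55.0, 64.8, 15.0, 27.8, 35.2 and 79.7 against 1.31 to 2.14. Its PD1d/IL-33 level rested on 4 UMIs, and with fewer than 50 UMIs in both cell sets together Plk1 was compared only after untransduced ACT and on day 26.

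**Figure D2:**
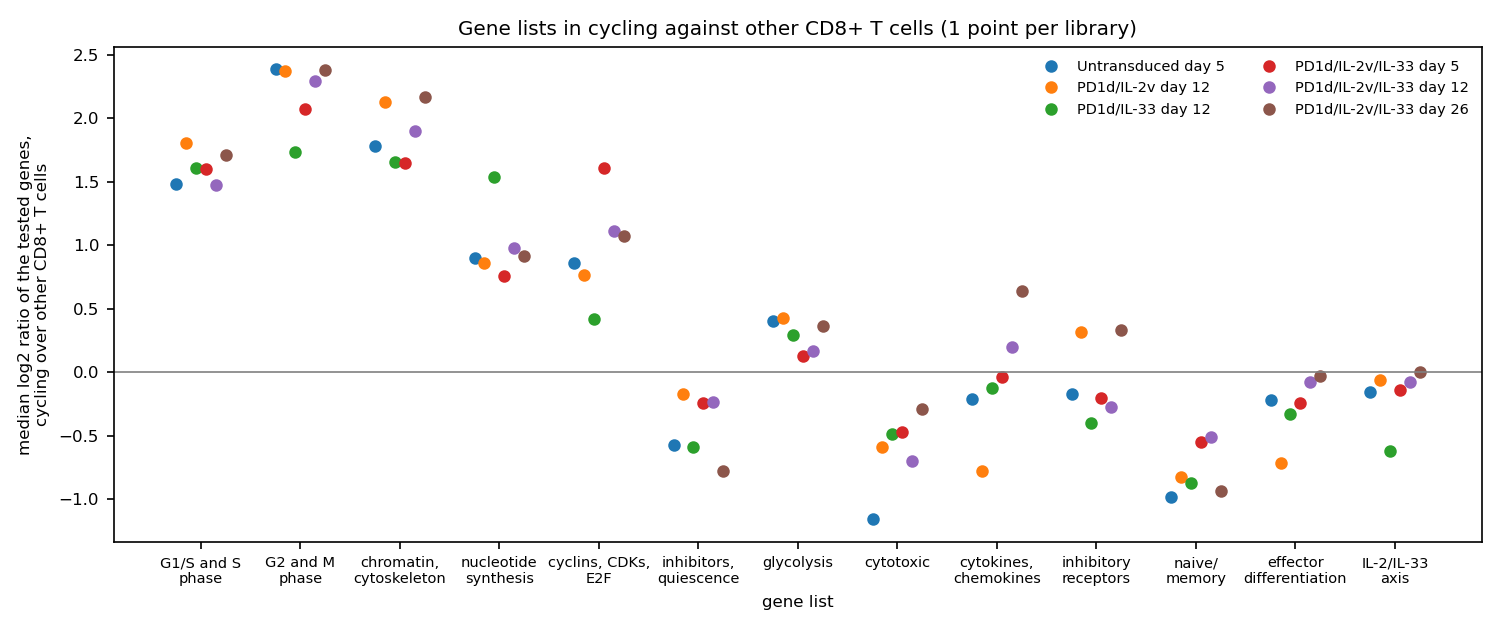
Median log2 ratio of cycling over other CD8+ TILs (y axis) for each fixed gene list (x axis), 1 point per library for the 6 libraries with at least 20 cycling cells. The S, G2 and M and chromatin lists lie between 1.47 and 2.38. The cyclin list ranges from 0.42 after PD1d/IL-33 ACT to 1.61 on day 5 of orthogonal ACT. The glycolysis list lies between 0.13 and 0.43, and the cytotoxic and naive or memory lists lie below 0.

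Cyclins differed by the phase in which they act. Ccna2, the cyclin of S phase and G2, stood at 208, 259, 169, 181, 189.7 and 285 CPM in cycling cells and at 2.71 to 6.48 in other cells. Cdk1, the mitotic cyclin-dependent kinase, stood at 152, 198, 146, 109.7, 153 and 203 against 2.62 to 7.56. Both were counted as higher in all 6 libraries. Ccne1, the cyclin of the G1/S step, was counted as higher after PD1d/IL-2v ACT (log2 1.27) and after orthogonal ACT on days 5 and 12 (1.67 and 1.45), and its ratios were 0.86, 0.96 and 0.89 in the other 3 libraries. The transcription factor Foxm1, which drives G2 and M genes, reached the count threshold in the 3 orthogonal libraries and was higher there (2.62, 2.25 and 1.96). Of the list of 23 cyclins, kinases and E2F factors, 8 of 17, 5 of 13, 4 of 11, 12 of 20, 10 of 18 and 11 of 20 were higher.

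The D-type cyclins, which act in G1, did not share this direction. Ccnd2 stood at 95.9, 84.1 and 67.5 CPM in cycling cells of the untransduced, PD1d/IL-2v and PD1d/IL-33 libraries against 169, 198 and 183 in other cells. In the orthogonal libraries it stood at 237, 166 and 84.7 against 282, 263 and 172. Ccnd2 was lower in all 6, and past the rule of size after PD1d/IL-2v ACT (log2 -1.15) and PD1d/IL-33 ACT (-1.31), the only calls of a lower level in the list. Ccnd3 was counted in neither direction in any library, with ratios from -0.61 to 0.26. Cdk6, their partner kinase, ranged from -0.07 to 0.69, and Cdk4 from 0.67 to 1.0, past the rule on day 26 only. Myc, a driver of cell growth, was counted in neither direction, at -0.54 to 0.70.

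Inhibitors of the cycle were mixed. Cdkn2c, which encodes the Cdk4 and Cdk6 inhibitor p18, was counted as higher in 5 of 6 libraries, with 63.0, 75.3, 33.8, 45, 43.5 and 90.4 CPM in cycling cells against 8.52 to 23.3, and its ratio in the PD1d/IL-33 library, on 9 UMIs, was 1.07. Cdkn1a (p21) was higher after PD1d/IL-2v ACT (log2 1.13), PD1d/IL-33 ACT (1.77) and on day 26 of orthogonal ACT (1.66), and at 0.70, 0.41 and 0.42 elsewhere. Cdkn1b (p27), the inhibitor known from resting T cells, was counted in neither direction, at -0.92 to 0.14. Genes of resting lymphocytes were lower in some libraries. Btg1, an antiproliferative gene, stood at 663, 632, 371, 450.2, 278 and 715 against 1482, 1069, 787, 817, 615 and 1784, and was counted as lower in 4 of 6. Txnip, an inhibitor of glucose uptake, was counted as lower in 4 of 6 (log2 -1.96, -1.03, -1.13 and -1.81), and at -0.99 after PD1d/IL-33 ACT and -0.23 after orthogonal ACT on day 12. Klf2, a factor of quiescence and of exit from tissue, was lower after untransduced ACT (135 against 446 CPM, -1.65) and on day 26 (141 against 348, -1.24), and at -0.45 to 0.04 in the other 4. Of the 16 genes of this list, those lower and higher were 5 and 1 of 15 compared, 3 and 2 of 16, 1 and 2 of 13, 1 and 1 of 15, 2 and 2 of 15, and 5 and 3 of 16.

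Most chromatin and spindle proteins were higher in cycling cells, 15 of 18 in all 6 libraries. Of the 18 genes, 16, 16, 17, 16, 17 and 17 were counted as higher, with median log2 ratios of 1.78, 2.13, 1.66, 1.65, 1.90 and 2.16. Tuba1b, an alpha-tubulin, stood at 831, 1005, 1009, 899.7, 1008 and 1033 CPM in cycling cells against 91.4 to 123. Hmgb2, a chromatin protein, stood at 2428, 2585, 3091, 2096, 2564 and 3023 against 343 to 663. H2afz, the histone variant H2A.Z, stood at 2223, 2028, 2108, 1997, 1958 and 2709 against 597 to 677. Each of the 3 was among the 88 of 4473 compared genes (1.97%) counted as higher in all 6 libraries.

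Nucleotide synthesis genes were higher in part. Of 17 genes, 7 of 17, 7 of 17, 7 of 10, 6 of 17, 7 of 16 and 8 of 17 were higher, and 5 were higher in all 6 libraries. Tk1, thymidine kinase, stood at 175, 175, 109, 74.5, 92.3 and 201 CPM against 8.47 to 20.4, and Tyms, thymidylate synthase, at 187, 191, 93.8, 76.1, 142 and 144 against 13.3 to 22.7. Glycolysis genes moved little. Of 15, 0 were counted after untransduced ACT, PD1d/IL-33 ACT and orthogonal ACT on days 5 and 12, and 1 was higher after PD1d/IL-2v ACT and on day 26. Ldha, lactate dehydrogenase A, stood at 1579.9, 1457, 1039, 950.4, 1022 and 1060.4 in cycling cells against 1145, 1005, 609, 809, 832 and 689, with ratios of 0.23 to 0.76. The list's median of 0.16 on day 12 of orthogonal ACT was -0.01 under TMM, so that no direction can be given for it there.

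Outside the lists, 10 genes higher in all 6 libraries were named by their median ratios. 2810417H13Rik, the gene of the PCNA-associated factor, had a median log2 ratio of 4.51 and ranged from 3.87 to 5.30 between libraries. The histone genes Hist1h2ap (4.19), Hist1h2ae (3.53) and Hist1h1d (2.11) were among them with Hist1h1e (1.98), and their reads may be shared with near-identical copies. Lig1, the DNA ligase of replication (2.28), and Incenp, the scaffold of the chromosomal passenger complex (2.14), also ranked among the first 6, with Ccdc34 (2.48), and Gm10282 (2.05) and the long noncoding RNA Lockd, transcribed next to Cdkn1b (1.91), completed the first 10.

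The effector program of cycling cells differed in Ccl5. Ccl5, a chemokine of effector and memory T cells, was the 1 gene counted as lower in all 6 libraries. It stood at 589, 1674 and 5019 CPM in cycling cells of the untransduced, PD1d/IL-2v and PD1d/IL-33 libraries against 3463, 5418 and 14003 in other cells. In the orthogonal libraries it stood at 2626, 2003 and 3378 on days 5, 12 and 26 against 8567, 4797 and 11428. The log2 ratios were -2.54, -1.69, -1.48, -1.70, -1.26 and -1.76. With cells above 20000 UMIs left out, 0 genes were lower in all 6.

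Granzymes were not uniform. Gzmb, granzyme B, stood at 624, 545, 915, 1791, 1169 and 499 CPM in cycling cells against 524, 796, 748, 1860.3, 1215 and 403, and was counted in neither direction in any library. Gzma, granzyme A, was lower in cycling cells after untransduced ACT (7.99 against 106, log2 -2.69), PD1d/IL-33 ACT (499 against 1157, -1.20) and on day 26 of orthogonal ACT (246 against 522, -1.06). After PD1d/IL-2v ACT it stood at 1552 against 883, a ratio of 0.81. Gzmc and Gzmf, of the granzyme cluster, were lower after untransduced ACT (-1.79 and -2.94), PD1d/IL-2v ACT (-3.73 and -3.22) and orthogonal ACT on day 12 (-1.20 and -1.66). On day 12 of orthogonal ACT Gzmc stood at 357 against 830.3 CPM. Prf1, perforin, was lower after PD1d/IL-33 ACT (-1.04) and orthogonal ACT on day 12 (-1.10). Of 13 cytotoxic genes, 5 of 10, 4 of 12, 3 of 7, 1 of 12, 6 of 13 and 1 of 9 were lower and 0 higher, at median ratios of -1.16, -0.59, -0.49, -0.47, -0.70 and -0.29.

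After thinning, the share of cells with a Gzmb UMI was 28.6% in cycling and 26.7% in other cells after untransduced ACT, 39.4% and 29.4% after PD1d/IL-2v ACT, and 50% and 50.8% after PD1d/IL-33 ACT. After orthogonal ACT it was 75% and 65.4% on day 5, 74.3% and 55.0% on day 12, and 39.1% and 26.1% on day 26. Macrophages, which should lack Gzmb and had a median of 10852 UMIs before thinning, held it in 0.485%. Gzma was found after thinning in 1.79% of cycling and 7.10% of other cells after untransduced ACT, 30.3% and 19.0% after PD1d/IL-2v ACT, and 26.9% and 36.2% after PD1d/IL-33 ACT. After orthogonal ACT it was found in 42.4% and 43.3% on day 5, 37.1% and 30.1% on day 12, and 18.5% and 16.4% on day 26, so that the direction was not the same in all libraries. Gzmc, whose summed level was lower in cycling cells after untransduced ACT and PD1d/IL-2v ACT, was not found in a smaller share of cells before thinning, at 8.93% against 7.10% and 12.1% against 7.34%. After thinning it was found in 5.36% against 1.99% after untransduced ACT and in 0 of 33 (exact upper bound 10.6%) against 3.90% after PD1d/IL-2v ACT. On day 12 of orthogonal ACT, where its summed level was also lower, Gzmc was found in 24.3% against 21.9% before thinning. After thinning the shares there were 11.4% against 14.5%.

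Cytokine genes gave few calls. Of 10, 2 were higher and 1 lower of 9 after untransduced ACT, 0 and 3 of 9 after PD1d/IL-2v ACT, 0 and 1 of 6 after PD1d/IL-33 ACT, 0 and 1 of 8 on day 5, 1 and 1 of 9 on day 12, and 3 and 1 of 10 on day 26. Ifng, interferon gamma, was lower after PD1d/IL-2v ACT (147 against 499 CPM, log2 -1.70) and counted in neither direction elsewhere (0.04 to 0.64). Ccl3, a chemokine of activated T cells, was higher on day 26 (559 against 170.0, log2 1.66). Ccl1 was higher after untransduced ACT (1.46) and on days 12 and 26 of orthogonal ACT (1.58 and 1.32), but its UMIs lay in 9, 10 and 10 cycling cells. Csf2 was higher after untransduced ACT (2.53), where 42 of its 63 UMIs lay in 1 cell.

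The summed levels of inhibitory genes gave 1 call in the 6 libraries, whereas the share of cells with a UMI was higher in cycling cells of some. Pdcd1, which encodes PD-1, stood at 729, 485 and 176 CPM in cycling cells against 836, 314 and 227 in the untransduced, PD1d/IL-2v and PD1d/IL-33 libraries. In the orthogonal libraries it stood at 215, 171 and 486 on days 5, 12 and 26 against 221, 240.0 and 342. Lag3, Tox, Havcr2 and Tigit were, like Pdcd1, counted in neither direction in any library. Of the 11 genes of the list only Nr4a2, a factor induced by receptor signaling, was counted, on day 26 (273 against 128, log2 1.04), and with TMM scaling it was not. The median ratio of the list had no common sign, at -0.17, 0.31, -0.40, -0.21, -0.28 and 0.33. A Pdcd1 UMI was found after thinning in 60.7% of cycling and 48.9% of other cells after untransduced ACT, 39.4% and 21.8% after PD1d/IL-2v ACT, 38.5% and 26.1% after PD1d/IL-33 ACT, and 26.1% and 31.8%, 27.1% and 25.8%, and 57.6% and 32.0% on days 5, 12 and 26 of orthogonal ACT, against 0.485% of macrophages. On day 26 the counting intervals did not overlap (46.9 to 67.9 against 30 to 34.1). Lag3 was found after thinning in 58.9% of cycling cells (45 to 71.9) and 31.5% of other cells (26.7 to 36.7) after untransduced ACT, and in 25% (16.6 to 35.1) and 13.8% (12.3 to 15.4) on day 26, again with no overlap. In the other 4 libraries the Lag3 intervals overlapped. The share was higher in cycling cells after PD1d/IL-2v ACT (36.4% against 19.7%). It was lower in them after PD1d/IL-33 ACT (11.5% against 13.7%). It was also lower on days 5 (16.3% against 18.8%) and 12 (10% against 14.0%) of orthogonal ACT.

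Some genes of naive and memory cells were lower, but 0 of the 8 compared in all 6 libraries were lower in every one. Of 11, 5 of 11 compared, 5 of 11, 4 of 8, 1 of 10, 2 of 10 and 4 of 11 were lower and 0 higher, at medians of -0.98, -0.82, -0.87, -0.55, -0.51 and -0.94. Il7r, the receptor of the survival cytokine IL-7, was lower after untransduced ACT (89.9 against 282, log2 -1.55), PD1d/IL-2v ACT (-1.37) and orthogonal ACT on days 12 and 26 (-1.27 and -1.99). Tcf7, which encodes TCF1, was lower after PD1d/IL-33 ACT (18.8 against 73.5, -1.54, on 5 UMIs) and on day 26 (45.8 against 133, -1.35). Bcl2, an inhibitor of apoptosis, was lower in 4 of 6 libraries and at -0.55 and -0.24 on days 5 and 12 of orthogonal ACT.

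Cycling cells with TCF1 transcripts were seen in all 6 libraries. After thinning, Tcf7 was found in 16.1%, 15.2% and 0 of 26 cycling cells of the untransduced, PD1d/IL-2v and PD1d/IL-33 libraries, against 22.4%, 22.0% and 16.4% of other cells. It was found in 12.0%, 5.71% and 9.78% on days 5, 12 and 26 of orthogonal ACT, against 20.1%, 11.6% and 22.9%. The 0 arose from thinning, as 11.5% of the PD1d/IL-33 cycling cells held a Tcf7 UMI before it. Each thinned cycling share was below that of the other cells, and macrophages held Tcf7 in 0.485%.

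**Figure D3:**
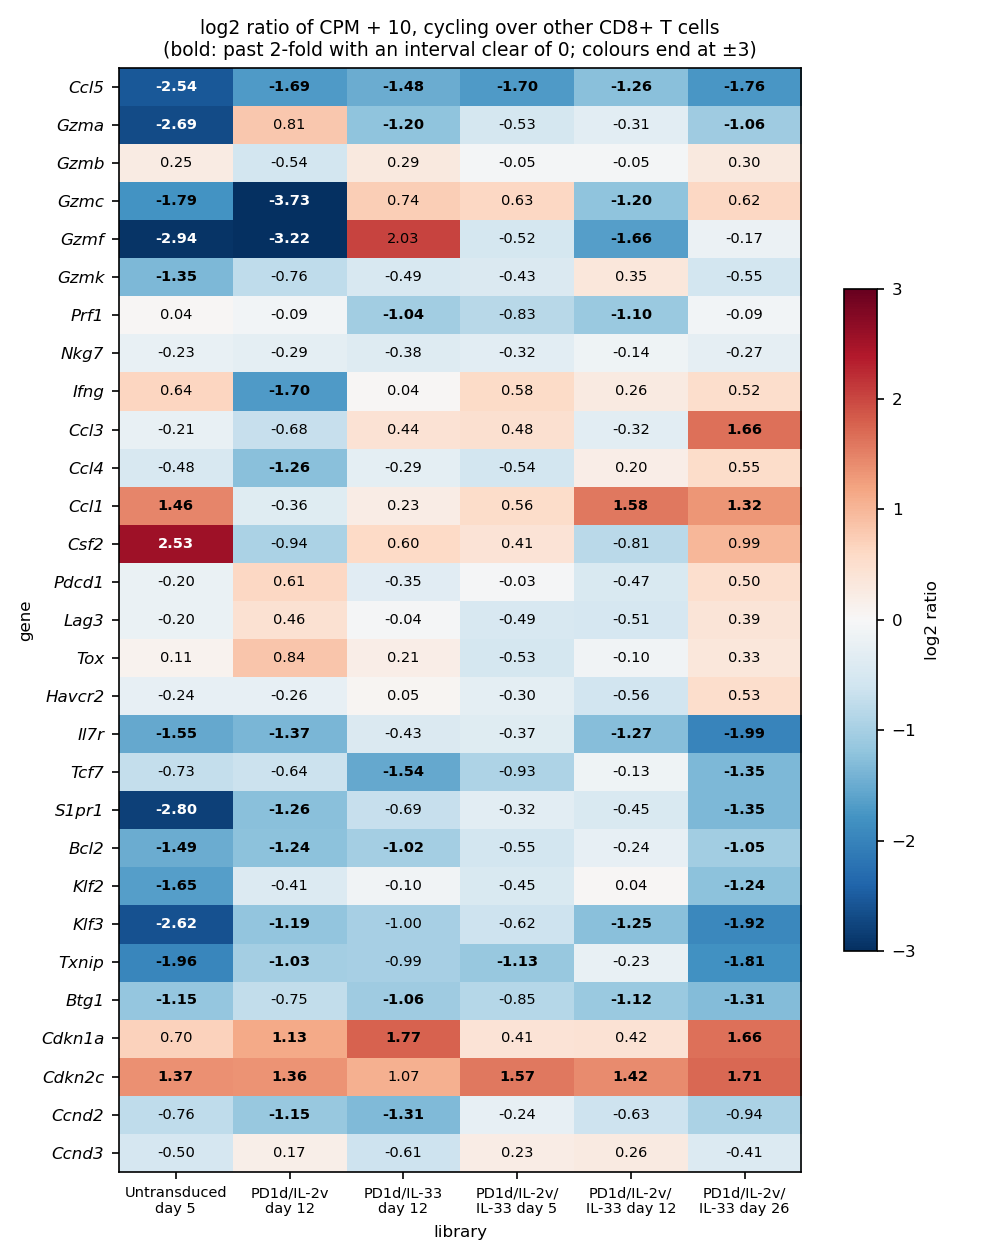
Log2 ratio of cycling over other CD8+ TILs for genes of T-cell state and cycle control (rows) in the 6 libraries with at least 20 cycling cells (columns), with the colour scale ending at -3 and 3; values in bold passed the rule of size, and genes under 50 UMIs in cycling and other cells together are never in bold. Ccl5 is low in all 6 columns, Pdcd1, Lag3, Tox and Havcr2 have no value in bold, and Il7r and Bcl2 are below 0 in all 6.

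Differentiation genes and cytokine receptors differed less. Of 14 effector genes, 1 of 12, 3 of 13, 1 of 10, 0 of 13, 1 of 13 and 1 of 14 were lower, and Ifitm1 was higher, on day 26. Ly6c2, a surface protein of effector and memory cells, was lower after PD1d/IL-2v ACT (447 against 1118 CPM, log2 -1.31) and on day 26 (227 against 853, -1.87), and level on day 12 of orthogonal ACT (1638 against 1654). Of 14 genes of the IL-2 and IL-33 pathways, 1 of 10 was lower after PD1d/IL-2v ACT and 2 of 8 after PD1d/IL-33 ACT, and 0 of 9 to 12 elsewhere. Il2rb, the signaling beta chain of the IL-2 receptor, stood at 658, 539, 206, 395, 317 and 435 against 679.6, 502, 254, 418, 392 and 385. Il2ra, the high-affinity chain, stood at 76.9, 54.3, 11.3, 185, 98.5 and 40.8 against 71.1, 75.5, 22.1, 135, 68.9 and 21.5. Neither was counted in any library. Il1rl1, the IL-33 receptor, was low, at 1.04 to 26.2 CPM in cycling cells.

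The balance of phases was measured as the share of the UMIs of the S and the G2 and M lists that came from the S list. It was 34.5%, 34.5% and 34.6% in cycling cells of the untransduced, PD1d/IL-2v and PD1d/IL-33 libraries, and 35.1%, 31.4% and 25.8% on days 5, 12 and 26 of orthogonal ACT. The 4 cycling cells of the non-treated library gave 33.1%. The first 4 values lay within 1 percentage point of each other, and the values of day 12 and day 26 lay below them. Counted by cell, those with more S than G2 and M UMIs made up 23.2%, 15.2%, 19.2%, 20.7%, 24.3% and 13.0% of the cycling cells of the 6 libraries, so that day 26 was lowest by both measures, whereas day 12 of orthogonal ACT was highest by this one. In other CD8+ TILs of the 6 libraries the share of UMIs was higher, at 42.0%, 40.4%, 38.3%, 40.3%, 38.5% and 36.9%, and in those of the non-treated library it was lower than in its cycling cells, at 29.5%. As cycling cells were chosen by Mki67 and Top2a, the gap to other cells is not independent of the rule, and it was not tested.

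**Figure D4:**
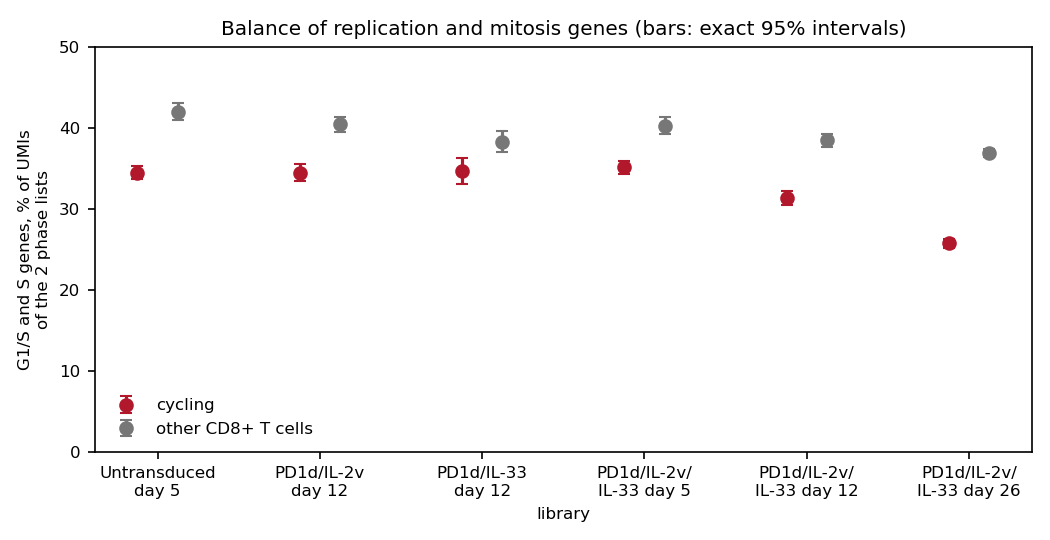
Share of S-list UMIs among the UMIs of the S and the G2 and M lists in percent (y axis, 0 to 50) for cycling and other CD8+ TILs of the 6 libraries with at least 20 cycling cells (x axis); bars are exact 95% intervals. Cycling cells lie below other cells in every library and reach their lowest value, 25.8%, on day 26 of orthogonal ACT. The rule on Mki67 and Top2a itself made the contrast of cycling and other cells, which was not tested.

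On day 26 the S share of cycling cells was 5.60 percentage points below that of day 12 (interval -6.62 to -4.59). The S list itself was at 3828 CPM on day 12 and 3824 on day 26, while the G2 and M list was at 8373 and 11013. Single genes of the late wave differed by less than the 2-fold rule, with log2 ratios of day 26 over day 12 of 0.86 for Birc5 (0.66 to 1.06), 0.81 for Ube2c (0.64 to 0.99), 0.72 for the centromere histone Cenpa (0.52 to 0.92), 1.0 for the mitotic exit activator Cdc20 (0.59 to 1.41) and 0.99 for Plk1 (0.53 to 1.44). Of 51 genes of the G2 and M list compared, 3 were counted as higher (Ckap2l, Gtse1 and Tubb4b), and with TMM scaling 1 was. Within the S list single genes were lower, such as Mcm2 at -0.52 (-0.90 to -0.13) and Pcna at -0.71 (-0.94 to -0.48), and the list's median was -0.06. The share of cells above 20000 UMIs was 35.9% on day 26 and 14.3% on day 12, and its part in the shift is given by leaving such cells out, after which the difference was -7.21 points.

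Cycling cells were then compared between libraries, each comparison sharing a library with another and the day 12 orthogonal library standing in 4 of 5. The first comparison asked how cycling cells differed by engineering on day 5. Cycling cells of orthogonal ACT had 178 genes higher (3.51% of 5076 compared) and 169 lower (3.33%) than those of untransduced ACT. Other CD8+ TILs of the same libraries had 152 higher (2% of 7594) and 122 lower (1.61%). Of the genes counted in cycling cells and compared in both, 144 of 340 were counted the same way in other cells (42.4%, or 69.9% of the 206 counted there), and 0 the opposite way. With TMM scaling the split was 233 higher and 114 lower. Without cells over 20000 UMIs it was 127 and 193, and with at least 2 UMIs of both Mki67 and Top2a 143 and 180. The balance thus had no fixed direction.

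The largest difference was in Gzma, with 1822 UMIs (1492 CPM) in cycling cells of orthogonal ACT and 8 UMIs (7.99 CPM) after untransduced ACT, a log2 ratio of 6.38 (5.86 to 6.81) beside 4.22 in other cells. Ifng stood at 1710.1 against 222 CPM (2.89, 2.70 to 3.09; other cells 2.95). Ccl3 stood at 1739.5 against 202 (3.05, 2.85 to 3.25; other cells 2.36). Single cells carried part of both, as 758 of 2089 Ifng UMIs and 970 of 2125 Ccl3 UMIs lay in 1 cell each, and without the highest cell of each library the ratios were 2.61 and 2.68. Il13, a type 2 cytokine, had 86 UMIs against 0, of which 54 lay in 1 cell, and all 136 Gzmf UMIs lay in 1 cell. Gzmb was also higher (log2 1.51, and 1.81 in other cells). In all, 5 of 9 cytotoxic and 4 of 8 cytokine genes were higher, a count that includes Gzmf, whose ratio was 0 without its 1 cell. Gzma and Gzmf, with 8 and 7 UMIs after untransduced ACT, reached the UMI minimum through orthogonal ACT alone. The count of 5 cytotoxic genes thus in part restates the minimum. Lower in orthogonal ACT were Nrn1 (15.6 against 193 CPM, log2 -2.99) and Dapl1 (10.6 against 146, -2.92), and with them Nrgn (-2.45), Ccrl2 (-2.42) and Igfbp7 (-2.32). Each of these had under 50 UMIs in orthogonal ACT and reached the minimum through untransduced ACT alone. Inhibitory genes were lower in 5 of 11, with Pdcd1 at -1.71 (-1.91 to -1.52; other cells -1.88), Tox at -1.54, Lag3 at -1.43, Nr4a2 at -1.09 and Ctla4 at -1.0, of which 3 of 11 were counted with TMM scaling. Of the cycle genes, 1 was higher and 1 lower of 43 S genes, 0 and 3 of 47 G2 and M genes, 2 and 2 of 20 cyclins, kinases and E2F factors (4 and 1 with TMM scaling) and 0 and 2 of 17 nucleotide synthesis genes.

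**Figure D5:**
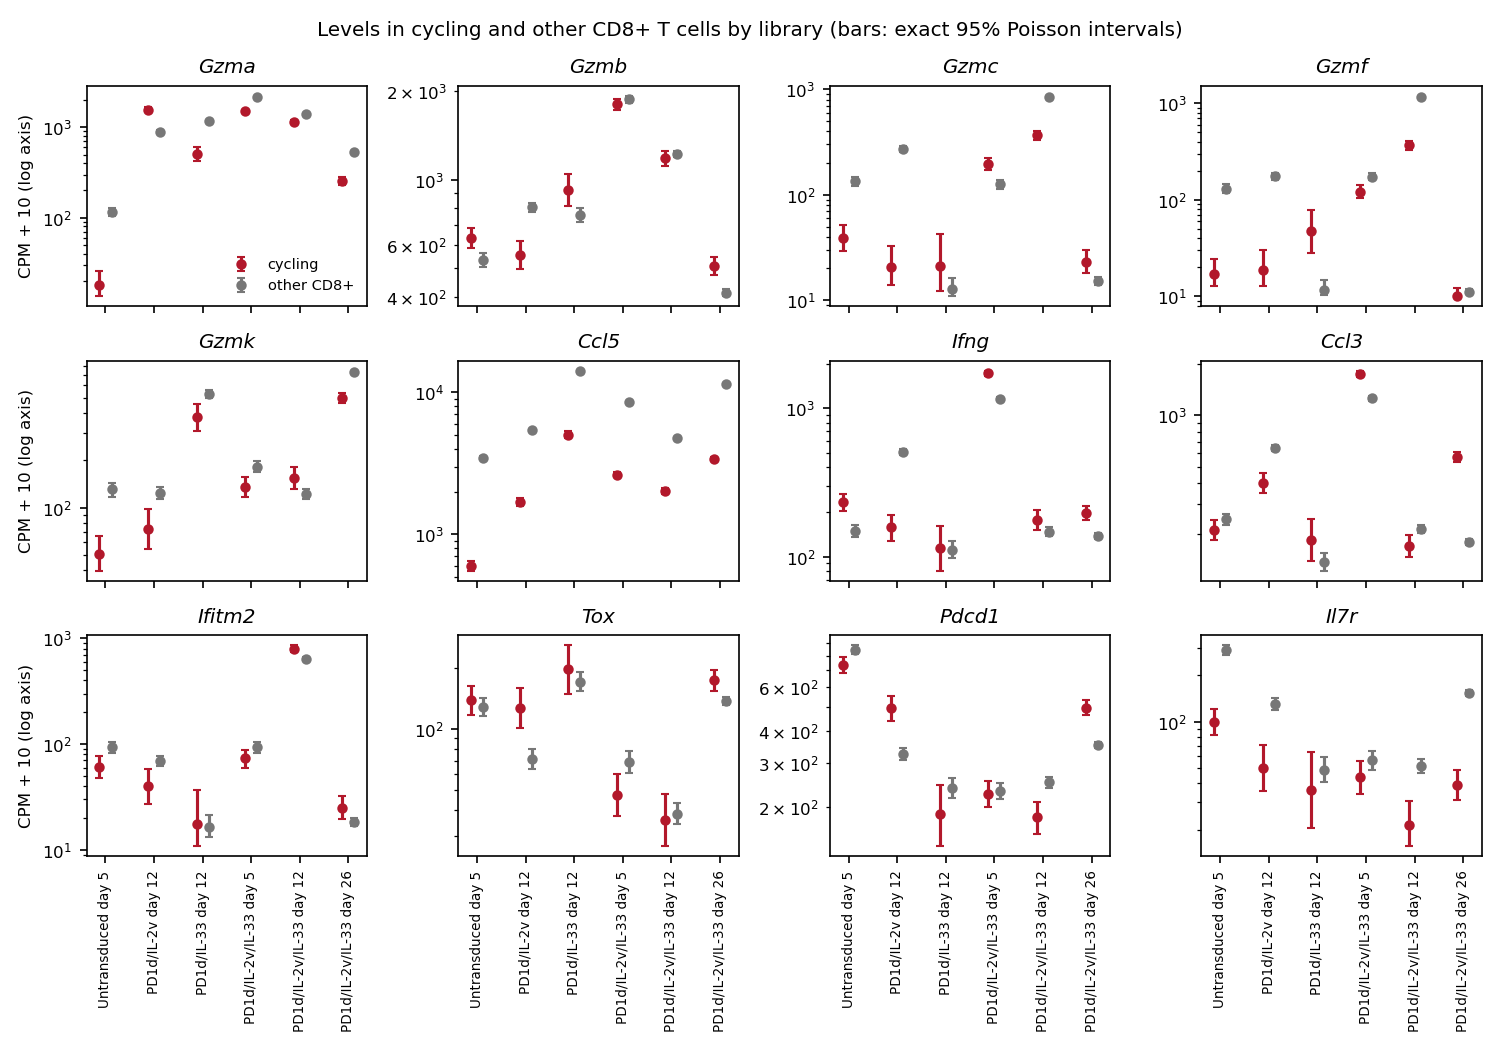
Levels of 12 genes of T-cell state as CPM plus 10 on a log axis (y), in cycling and other CD8+ TILs of the 6 libraries with at least 20 cycling cells (x axis); bars are exact 95% Poisson intervals for counting error. Ccl5 is lower in cycling cells of every library, Ifng and Ccl3 are highest on day 5 of orthogonal ACT, Ifitm2 stands out on day 12 of orthogonal ACT (789.9 CPM in cycling cells), and Tox has its lowest level there (25.9 CPM).

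The second comparison set orthogonal ACT, the mix that also held PD1d/IL-33 cells, against PD1d/IL-2v ACT on day 12, in libraries of different runs. Cycling cells had 58 genes higher (1.54% of 3764) and 68 lower (1.81%), and other cells 112 higher (1.33% of 8392) and 97 lower (1.16%). Of those in cycling cells, 46 of 123 were counted the same way in other cells (37.4%, or 42.2% of those counted there) and 1 the opposite way. With TMM scaling 86 were higher and 49 lower. Interferon-induced membrane genes were among the 5 highest, with Ifitm1 at 299 UMIs against 2 (log2 4.57, 3.80 to 4.97; other cells 1.39), Ifitm2 at 789.9 against 29.8 CPM (4.33, 3.78 to 4.88; other cells 3.21) and Ifitm3 at 284 against 21.0 (3.24; other cells 2.65). Gzmf (4.30) and Gzmc (4.16) ranked between Ifitm2 and Ifitm3, but 235 of 346 Gzmf UMIs and 171 of 344 Gzmc UMIs lay in 1 cell each, and without the highest cells the ratios were 3.45 and 3.51. These 5 genes each had under 50 UMIs after PD1d/IL-2v ACT and reached the UMI minimum through orthogonal ACT alone. Gzmb was higher by 1.09.

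Among inhibitory genes 6 of 10 were lower after orthogonal ACT: Tox (-1.83), Lag3 (-1.58), Ctla4 (-1.58), Pdcd1 (-1.45, -1.72 to -1.18), Tigit (-1.35) and Cd160 (-1.15). In other CD8+ TILs the Pdcd1 ratio was -0.37. Dapl1 had 3 UMIs against 76 (-3.45). Klf2 was lower by this rule at -1.94 and Prf1 at -1.54. The ratios of Cst3 (-2.52) and Penk (-2.15) rested on single cells of the PD1d/IL-2v library, with 545 of 646 and 78 of 96 UMIs, and were -0.08 and -0.62 without them. Ifi27l2a, an interferon-induced gene, was at -2.01 beside -0.86 in other cells.

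The third comparison set orthogonal ACT, the mix that also held PD1d/IL-2v cells, against PD1d/IL-33 ACT on day 12, in libraries of different runs. On the PD1d/IL-33 side it rested on 26 cycling cells with 266599 UMIs. Higher were 118 genes (3.87% of 3046) and lower 28 (0.919%), with 107 (1.37% of 7818) and 51 (0.652%) in other cells. The split depended on the UMI minimum, with 245 higher and 151 lower at 10 UMIs and 20 and 16 in thinned cells. With 964726 UMIs in the cycling cells of orthogonal ACT, a gene reached the minimum more readily where it was high in that library. Of those in cycling cells 44 of 144 were counted the same way in other cells (30.6%, or 61.1% of those counted there). Ifitm2 had 762 UMIs against 2 (log2 5.51, 4.43 to 6.20; other cells 5.29), Ifitm1 299 against 2 (4.19, 3.10 to 4.89), Gzmc 344 against 3 (4.11, 3.08 to 4.91) and Ifitm3 274 against 3 (3.79, 2.76 to 4.59). Anxa1, annexin A1, had 78 UMIs against 0, in 32 cells. Of 14 effector genes 9 reached the minimum and 7 were higher, beside 5 of 13 in other cells. Among the 7 were Fcer1g (2.24), Tbx21 (2.06), which encodes T-bet, Plac8 (1.24) and Ly6c2 (1.16). Ifitm1, Ifitm2 and Ifitm3 of this list, with 2, 2 and 3 UMIs after PD1d/IL-33 ACT, reached the minimum through orthogonal ACT alone. The count of 7 thus in part restates the minimum.

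Of 14 genes of the IL-2 and IL-33 pathways 8 were compared and 3 were higher. These were Cish (1.59), Il2ra with 95 UMIs against 3 and Socs2 with 56 against 0, of which Il2ra and Socs2 reached the minimum through orthogonal ACT alone. Tox was lower, at 25.9 against 188 CPM (-2.46, -3.03 to -1.87; other cells -2.15), and 1 of 9 inhibitory genes in all. Gzmk, granzyme K, was lower by 1.28 on the log2 scale. The heat shock genes Hspa1b (-2.05) and Hspa1a (-2.04), whose near-identical copies may share reads, were lower too, with Gm16380 (-1.64). The immediate early gene Fos was at -1.77 in cycling cells and 0.47 in other cells, a difference that was not tested.

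The fourth comparison followed orthogonal ACT from day 5 to day 12. Higher on day 12 were 33 genes (0.677% of 4876) and lower 34 (0.697%), beside 33 (0.404% of 8170) and 29 (0.355%) in other cells. Of those in cycling cells 24 of 67 were counted the same way in other cells (35.8%, or 55.8% of those counted there). Ifitm2 stood at 789.9 CPM on day 12 and 63.0 on day 5 (log2 3.45, 3.15 to 3.76; other cells 2.79), and Ifitm3 at 284 and 36.0 (2.68). Upp1, uridine phosphorylase, had 62 UMIs and 1 (2.78), with Anxa1 (2.39) and Tff1 (2.29) next. Ifitm3, Upp1, Anxa1 and Tff1 had under 50 UMIs on day 5 and reached the UMI minimum through day 12 alone. Lower on day 12 were Ifng at 167 against 1710.1 (-3.28, -3.51 to -3.06; other cells -2.97) and Ccl3 at 162 against 1739.5 (-3.35, -3.58 to -3.13; other cells -2.56). Icos, a costimulatory receptor, stood at 59.1 against 217 (-1.72; other cells -0.66). Il13 had 1 UMI against 86, and 1802 of 2732 Ccl4 UMIs of day 5 lay in 1 cell. Without the highest cell of each library the ratios were -1.47 for Ccl4 (-2.25 with it), -2.98 for Ccl3 and -3.10 for Ifng. No gene of the S, G2 and M or inhibitory lists was counted in this comparison.

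The fifth comparison followed orthogonal ACT from day 12 to day 26. Higher on day 26 were 95 genes (1.78% of 5330) and lower 109 (2.05%), beside 185 (1.96% of 9455) and 163 (1.72%) in other cells. Of those in cycling cells 83 of 199 were counted the same way in other cells (41.7%, or 31.8% of those counted there). With TMM scaling 65 were higher and 136 lower. Ifitm2 stood at 15.1 CPM on day 26 and 789.9 on day 12 (log2 -5.00, -5.36 to -4.61; other cells -5.13), Ifitm3 at 9.41 and 284 (-3.92), Gzmc at 13.2 and 357 (-3.98; other cells -5.80) and AA467197 at 15.1 and 197 (-3.05). Gzmf had 0 UMIs on day 26 against 346. Ifitm2, Ifitm3, Gzmc and AA467197 had 24, 15, 21 and 24 UMIs on day 26. Like Gzmf, these genes reached the UMI minimum through day 12 alone. Gzma was at -2.16 (-2.32 to -2.00; other cells -1.41) and Gzmb at -1.21 (other cells -1.57), while Gzmk was at 1.68 (other cells 2.58).

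Inhibitory genes were higher on day 26 in 3 of 11, with Tox at 2.27 (1.81 to 2.72; other cells 1.84), Tigit at 1.54 (other cells 1.20) and Pdcd1 at 1.45 (1.22 to 1.69; other cells 0.49). Ly6c2 (-2.80), Ifitm1 (-2.62), Fcer1g (-2.23) and Plac8 (-2.01) were lower, as were 3 of 10 genes of the IL-2 and IL-33 pathways, Cish (-1.74), Socs2 (-1.59) and Il2ra (-1.09). The genes with the highest ratios on day 26, Klk1 (120 UMIs against 0, all in 1 cell), H2-Aa (3.02), Cd74 (2.69), Tyrobp (2.66) and H2-Eb1 (2.63), are mostly genes of antigen-presenting and myeloid cells and did not hold. Without the cycling cells that held at least 10 UMIs of Siglech or 100 of Cst3 (1 of PD1d/IL-2v ACT and 2 of day 26), left out after the data were seen, H2-Aa was at -0.26, H2-Eb1 at -0.29, Tyrobp at 0.02 and Cd74 at 0.31.

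Markers of other cell types were low in cycling CD8+ TILs overall. The genes of the T-cell gate summed to 2698 to 5608 CPM. The 8 macrophage genes summed to 18.0, 10.5, 15.0, 18.8, 11.4 and 37.6 CPM in the untransduced, PD1d/IL-2v and PD1d/IL-33 libraries and on days 5, 12 and 26 of orthogonal ACT, with Cd68 leading, against 6941 in macrophages. The 6 dendritic cell genes summed to 0, 1.75, 7.50, 0.819, 1.04 and 31.4, with 45 of the 50 UMIs of day 26 from Siglech in 1 cell. Of the 6 B-cell genes, of which Ighm was not matched, the sums were 1.0, 17.5, 0, 1.64, 3.11 and 28.9, with 42 UMIs of Ly6d leading on day 26, against 4561 in B cells. The 6 NK genes summed to 73.0, 152, 93.8, 72.9, 124 and 62.1, mostly Klre1, against 2765 in NK cells. The 4 CD4+ and regulatory T-cell genes summed to 479, 168, 22.5, 122, 122 and 127, mostly Tnfrsf4, which activated CD8+ cells also express, against 1656 in CD4+ T cells. The 7 melanoma genes summed to 3.0, 0, 3.75, 0, 1.04 and 0.627. Beyond the cells named above, the part of these RNAs in the comparisons was not tested.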

How the data were processed

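CD45+ cells from pooled tumors (5 mice per condition on days 5 and 12) were profiled with the 10x Genomics 5′ assay. The authors deposited 1 aggregated matrix of UMI counts (27998 gene identifiers, 15700 barcodes, 98669511 UMIs); per the labels it was made with Cell Ranger 2.2.0 on GRCm38. The counts were used as deposited. Identifiers with the same symbol were summed, and barcodes were tied to libraries through the suffix and the line of the aggregation table. The authors' filter was kept (500 to 6000 genes, 2000 to 40000 UMIs, 5 to 60% ribosomal protein and under 10% mitochondrial UMIs), but the gate and the choice of cycling cells were rebuilt, and the study's own cell calls were not used here. The study selected CD8+ cells with scGate, and its number of cells is not comparable with the one given here.

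UMIs were summed over the cycling and the other CD8+ TILs of each library with at least 20 cycling cells and scaled to 1000000 (CPM). With 1 library per condition no test was made. Intervals (95%) are exact Poisson or binomial (Clopper-Pearson) or join such bounds in a ratio, and they cover counting error only: they leave out the spread between cells and mice. Log2 ratios add 10 CPM to both levels and were given for genes with at least 50 UMIs. Shares of cycling cells are given with all UMIs and after thinning each cell to 2000 UMIs (seed 1). Shares of cells that held a named gene used thinned cells unless given as before thinning. The members and lists were chosen with earlier results of these data known. Named genes were all list genes, the 5 highest and 5 lowest ratios of each comparison between libraries, and the 10 highest median ratios outside the lists among genes counted in all 6 libraries. The values of 1 such gene are not reported here, though counts include it. The ratios and their intervals were tried on simulated Poisson counts. Those counts lack the spread between cells, so that the trial says nothing of it. Alternatives included TMM factors (edgeR 4.0.16), a pseudocount of 1, a minimum of 10 UMIs, thinned cells, other membership rules and cell filters, and libraries or single cells left out. Scripts ran in Python 3.11.15 (pandas 2.3.3, scipy 1.17.1, numpy 2.4.6) and R 4.3.3, with plots by matplotlib 3.10.9.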

Additional observations from a re-analysis of the deposited data

Results flagged for a closer look

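Ifitm1, an interferon-induced membrane protein, was lower in cycling than in other CD8+ TILs in 2 libraries and higher in another. The log2 ratio of cycling over other cells was -4.21 after PD1d/IL-2v ACT on day 12, with 2 UMIs in 1 of 33 cycling cells (3.50 against 240.3 CPM). It was -1.04 after orthogonal ACT on day 12, with 299 UMIs in 13 of 70 cycling cells (309.9 against 648 CPM). It was 2.08 after orthogonal ACT on day 26, with 67 UMIs in 4 of 92 cycling cells, 30 of them in 1 cell (42.0 against 2.30 CPM), where the other cells held 28 UMIs in 9 of 2060. What drew attention was the opposite direction under the same contrast in different conditions and days. The difference between these libraries was not tested, because each is 1 library.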

How the results depend on the processing

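Conditions could not be paired, because each condition and day was 1 library. Cycling and other cells of a library form pairs. A rule that read the same cells parted them, so that no paired test was made between them. Under the alternatives 37 of 45 share ratios moved by less than their counting interval. So did 35 of 72 shares, 22 of 63 S shares and 353 of 500 named ratios between libraries, of which 141 moved and 6 turned. Counts of genes have no such interval. Those classed as unchanged numbered 19 of 30 between cycling and other cells and 59 of 90 between libraries. This class allowed sizeable moves, such as from 178 to 233 genes higher with TMM scaling for orthogonal over untransduced ACT. Median ratios of the shared genes kept their value in 733 of 801 and turned in 0. Causes were not tested where the alternative's own construction does not show them. Depth limits the values of the PD1d/IL-33 library (26 cycling cells), and the membership rule itself finds more cells at greater depth.

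The share of cycling cells is given in the order untransduced day 5, PD1d/IL-2v, PD1d/IL-33, then orthogonal ACT on days 5, 12 and 26, for the values that moved. Thinned to 2000 UMIs it was 3.68, 3.20, 2.54, 6.19, 3.44 and 1.35%, and 1.43% without treatment. With 1 UMI of either gene it was 30.1, 25.4, 23.7, 34.6, 31.4 and 17.7%, with 13.5% for untransduced ACT on day 12 and 21.4% without treatment. With at least 5 cycle genes after thinning it was 53.9, 39.9, 39.4, 49.5, 41.5 and 42.0%, with 35.1% and 47.1% for these smaller libraries. With the cell filter of the study's other experiment (400 to 3000 genes, 500 to 12000 UMIs, under 5% mitochondrial and 50% ribosomal) it was 2.71, 1.27, 2.96, 10.5, 5.03 and 1.31%. With at least 2 UMIs of both genes it was 8.58% for untransduced ACT on day 5, 4.79% for PD1d/IL-33 and 13.2, 5.88 and 2.88% for orthogonal ACT. Without cells over 20000 UMIs it was 9.50% for untransduced ACT, 4.77% for PD1d/IL-2v and 2.81% on day 26.

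Ratios of these shares moved as follows. Orthogonal over untransduced ACT on day 5 was 0.918 with 5 cycle genes, which turned its direction, and 3.85 with the other cell filter. Orthogonal over PD1d/IL-2v ACT was 3.95 with the other cell filter (1.42 to 15.2), which excluded 1. Day 12 over day 5 was 0.907 with either gene (0.768 to 1.07, which included 1) and 0.838 with 5 cycle genes. Day 26 over day 12 was 1.01 with 5 cycle genes, which turned its direction, 0.260 with the other cell filter and 0.310 without cells over 20000 UMIs. The S share difference of day 26 and day 12 was -4.14 points with 5 cycle genes, -4.54 with the other cell filter, -7.44 with Lyz2, Cd79a and Ncr1 allowed and -7.21 without cells over 20000 UMIs.

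Genes lower in every library numbered 6 with a pseudocount of 1 CPM, 4 with TMM factors, 4 with the mean of each cell's CPM, 0 without cells over 20000 UMIs and 2 without cells high in Siglech or Cst3, and over 5 libraries 3 without PD1d/IL-2v, 3 without PD1d/IL-33 and 2 without day 5 of orthogonal ACT. Genes higher in every library numbered 203 with a minimum of 10 UMIs, 19 thinned and 140 without PD1d/IL-33. Between libraries the counts of genes higher and lower were, for orthogonal over untransduced ACT, 283 and 281 with a pseudocount of 1 CPM and 24 and 62 thinned. For orthogonal over PD1d/IL-2v ACT they were 100 and 119 with that pseudocount, 162 and 181 with 10 UMIs and 19 and 25 thinned, and 113 lower with the mean of each cell's CPM. For orthogonal over PD1d/IL-33 ACT they were 245 and 151 with 10 UMIs, 20 and 16 thinned and 69 and 17 with at least 2 UMIs of both genes, with 45 lower at a pseudocount of 1 CPM and 77 higher without cells over 20000 UMIs. For day 12 over day 5 they were 53 and 88 with a pseudocount of 1 CPM, 67 and 61 with 10 UMIs and 16 and 10 thinned. For day 26 over day 12 they were 251 and 189, 164 and 185, and 41 and 29 under the same settings.

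Among named genes, Cst3 (0.41) and Penk (1.29) of orthogonal over PD1d/IL-2v ACT turned without cells over 20000 UMIs, and Cst3 was at 0.0052 without cells high in Siglech or Cst3. On day 26 over day 12 H2-Eb1 was at -0.45 without cells over 20000 UMIs and at -0.29 without the Siglech or Cst3 cells, and H2-Aa at -0.26 without the latter. The Siglech and Cst3 setting, the libraries left out and the single cells left out were chosen after seeing the data.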
